A study of Mus musculus with 8 samples.

Results

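A set of 7 genes that encode restraining proteins of the NF-κB pathway were followed through the colon epithelium of mice with and without the nuclear receptor gene Rora. They were Nfkbia, Nfkbib, Nfkbie, Nfkbiz, Bcl3, Tnfaip3 and Tnip1, chosen by symbol, and all 7 were found among the 53379 genes listed for each library and passed the filter on low counts. The knock-out mice carried an intestine-specific deletion of Rora (RORaΔIEC, here KO), and the mice they were set against carried the floxed alleles without it (RORaf/f, here WT), so that floxed Rora was common to every group. All were C57BL/6. Injury came from dextran sulfate sodium (DSS), a sulfated polysaccharide toxic to the colon surface, given in drinking water at 2% for 5 days, and plain water followed for 3 days. RNA came from cells shaken off pieces of distal colon, with 2 libraries for each of DSS-treated KO, DSS-treated WT, untreated KO and untreated WT. The labels name the tissue-specific deletion but not its Cre driver, and the age of the mice is not given in the sources used here. No label ties the replicates to separate animals, so the p-values below describe the spread between these libraries, which may be technical.

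NF-κB dimers are held in the cytoplasm by the classical IκB proteins IκBα (Nfkbia), IκBβ (Nfkbib) and IκBε (Nfkbie), which are destroyed when the IKK complex phosphorylates them. The atypical IκB proteins IκBζ (Nfkbiz) and Bcl-3 (Bcl3) act in the nucleus on bound p50 or p52 dimers and can raise as well as lower transcription, so the word inhibitor describes them only in part. A20 (Tnfaip3) is a ubiquitin-editing enzyme that dampens signalling between the receptors and IKK, and ABIN1 (Tnip1) is a ubiquitin-binding partner of A20. Several of these genes are known targets of NF-κB and so form feedback loops, and loss of A20 from the mouse intestinal epithelium is known to worsen DSS colitis.

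The promoters of these genes are shown because a κB site is the letter pattern through which NF-κB would act on its own inhibitors. Of the 7 genes, 6 had a RefSeq promoter window on GRCm38.p6, of 250 bases before to 50 after the annotated start. The κB consensus motif, searched on both strands, was present in 5 of these 6 genes (Nfkbia, Nfkbie, Bcl3, Tnfaip3 and Tnip1). Counted by window, it was in 5 of their 7 windows and in 8.46% of all 32851 windows. Capitals mark every κB match, and each sequence runs 5′ to 3′ on the strand of its gene.
Nfkbia (chr12:55492598-55492897, minus strand): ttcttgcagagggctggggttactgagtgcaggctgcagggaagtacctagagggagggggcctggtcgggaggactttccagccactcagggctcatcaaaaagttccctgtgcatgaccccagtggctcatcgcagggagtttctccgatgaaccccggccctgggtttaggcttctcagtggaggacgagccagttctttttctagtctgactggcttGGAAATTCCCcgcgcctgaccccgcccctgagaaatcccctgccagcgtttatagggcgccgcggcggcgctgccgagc
Tnfaip3 (chr10:19015361-19015660, minus strand): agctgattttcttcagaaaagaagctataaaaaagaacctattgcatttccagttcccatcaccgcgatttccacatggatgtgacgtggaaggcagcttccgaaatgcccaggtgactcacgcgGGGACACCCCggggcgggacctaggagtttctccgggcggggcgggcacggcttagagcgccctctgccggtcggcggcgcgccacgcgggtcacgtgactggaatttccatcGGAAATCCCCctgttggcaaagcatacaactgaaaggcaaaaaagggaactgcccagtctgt
Tnip1 (chr11:54962891-54963190, minus strand): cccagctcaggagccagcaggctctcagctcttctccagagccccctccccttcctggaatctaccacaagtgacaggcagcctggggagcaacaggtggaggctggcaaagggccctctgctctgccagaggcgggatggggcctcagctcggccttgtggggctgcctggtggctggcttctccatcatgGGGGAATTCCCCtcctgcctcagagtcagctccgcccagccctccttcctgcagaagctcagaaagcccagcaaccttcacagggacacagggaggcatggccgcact
Nfkbib (chr7:28766595-28766894, minus strand): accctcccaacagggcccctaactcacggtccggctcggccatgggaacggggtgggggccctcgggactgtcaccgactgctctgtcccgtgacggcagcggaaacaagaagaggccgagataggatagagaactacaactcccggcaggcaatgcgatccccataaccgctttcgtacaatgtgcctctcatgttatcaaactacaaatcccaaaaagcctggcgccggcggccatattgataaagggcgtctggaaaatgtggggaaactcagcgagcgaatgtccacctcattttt
These 4 were chosen as the gene whose direction under DSS differed between genotypes, the enzyme gene that rose in DSS-treated KO, the member that fell with DSS in both genotypes and has an overlapping cluster of κB matches, and the member without a match. In Bcl3 the match was GGGAAGTCCC, which begins at base 3 of the gene, and in Nfkbie it was GGGGGATTCC. A second RefSeq window of Tnfaip3 held no κB match. The RefSeq start lay 0 bases from the outermost GENCODE M21 start for Nfkbia, but 868 bases from it for Nfkbib and 247 for the Tnfaip3 window shown. The half-site AGGTCA of ROR proteins, searched on both strands, was in none of the members' windows and in 16.3% of all windows, and the longer ROR response element consensus was in none of them and in 0.384%. A match describes letters in this window and says nothing of binding, and no match says only that the letters are not in it.

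Libraries held between 15971642 and 20418466 expected counts, which are RSEM's estimates of reads per gene. Rora had 8 and 5 counts in DSS-treated KO, 16 and 14 in DSS-treated WT, 4 and 3 in KO without DSS, and 12 and 6 in WT without DSS, too few to check the deletion, and counts over the whole gene cannot show a floxed exon. Epithelial markers dominated, with the summed level of 10 genes such as Epcam and Krt20 between 19565 and 23103 CPM (a gene's counts as a rate of all counts in the library, scaled by TMM factors) in every library. Those of T and NK cells (9 genes) summed to at most 6.35 CPM in any library and those of B and plasma cells (6 genes) to at most 4.03 CPM. Neutrophil and macrophage markers were not constant and are given beside the DSS results. In such bulk RNA, fewer cells of a type and less RNA per cell cannot be told apart.

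On the length-corrected TPM scale, which gives each gene's share of transcripts, the 7 genes summed to 313 and 307 TPM in DSS-treated KO, 224 and 220 TPM in DSS-treated WT, 229 and 237 TPM in untreated KO and 226 and 241 TPM in untreated WT. The summed level of DSS-treated KO lay above every other library, DSS-treated WT lay just below both untreated groups, and the untreated groups overlapped. Nfkbia and Tnip1 were the most abundant by TPM in 6 of the 8 libraries, and Nfkbie was the least abundant in every library. The make-up shifted with injury. Tnip1 took 16.4% and 16.6% of the summed TPM in DSS-treated KO, 27.6% and 27.3% in DSS-treated WT, 31.4% and 31.3% in KO without DSS, and 32.7% and 34.6% in WT without DSS. Nfkbiz took 12.3% and 11.6% in DSS-treated KO, 9.84% and 10.4% in DSS-treated WT, 7.84% and 7.83% in KO without DSS, and 5.60% and 6.15% in WT without DSS. The share of Tnfaip3 stayed between 10.4% and 11.6% in all 8 libraries.

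**Figure D1:**
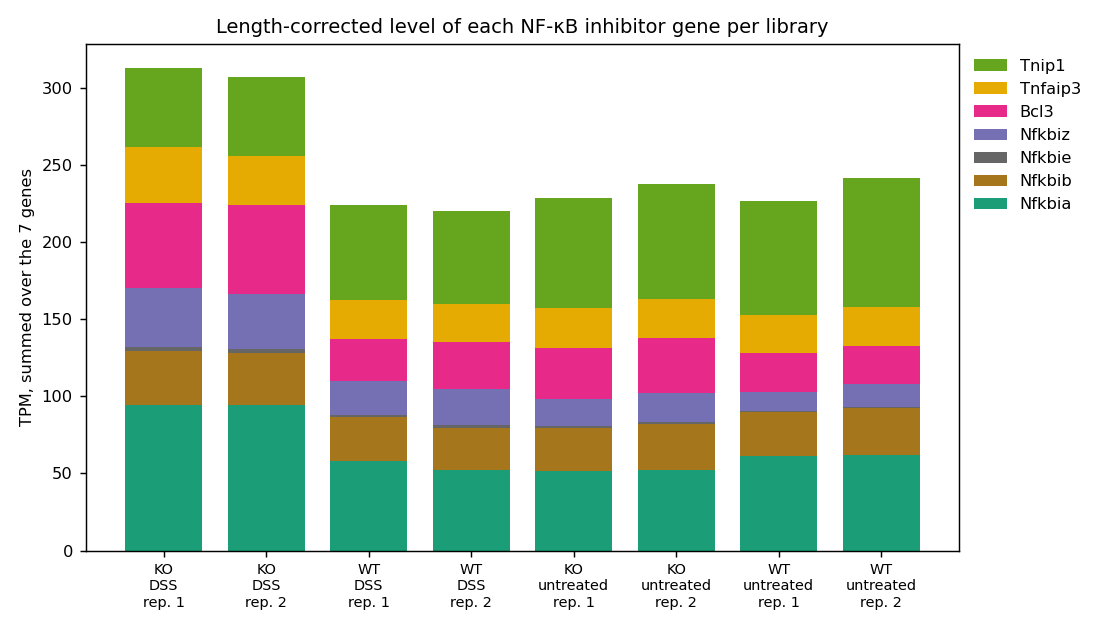
Stacked bars give the TPM of each of the 7 genes (vertical axis, summed) in each of the 8 libraries (horizontal axis). The 2 bars of DSS-treated KO reach 313 and 307 TPM, above all others, and the Tnip1 segment is narrowest there.

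The genes of the classical IκB proteins differed from each other in level and in response. Nfkbia (ENSMUSG00000021025.8, chromosome 12, 55489410 to 55492647 in GENCODE M21 on mm10) stood at 77.0 and 79.4 CPM in DSS-treated KO, 49.6 and 48.6 CPM in DSS-treated WT, 45.8 and 44.8 CPM in untreated KO and 56.9 and 57.8 CPM in untreated WT. No libraries of different groups overlapped, and the order from high to low was DSS-treated KO, untreated WT, DSS-treated WT and untreated KO. The direction of the genotype difference therefore turned with treatment: without DSS the KO libraries were the lower ones, and with DSS they were the higher ones. By edgeR's quasi-likelihood test, KO against WT gave a log2 fold change of -0.34 ± 0.05 (SE, adjusted p = 0.00046) without DSS and 0.67 ± 0.05 (adjusted p = 1.14e-07) with DSS. DSS against no treatment gave a log2 fold change of 0.79 ± 0.05 in KO (adjusted p = 1.49e-08) and -0.22 ± 0.05 in WT (adjusted p = 0.0034). The difference between these changes was 1.01 ± 0.07 on the log2 scale (edgeR adjusted p = 3.45e-07), which is the largest of the 7 genes. All 5 calls held under every alternative that was run.

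Nfkbib (ENSMUSG00000030595.15, chromosome 7, 28758251 to 28767512), whose product gives slower and more lasting control than IκBα, varied least. It stood at 26.4 and 26.2 CPM in DSS-treated KO, 22.4 and 21.8 CPM in DSS-treated WT, 22.7 and 24.9 CPM in untreated KO and 24.7 and 25.7 CPM in untreated WT. The libraries of the 2 untreated groups overlapped, and those of the 2 DSS-treated groups did not. KO against WT gave a log2 fold change of 0.25 ± 0.07 with DSS (SE, edgeR adjusted p = 0.0118) and -0.08 ± 0.07 without it (adjusted p = 0.497). The DSS call was lost without DSS-treated WT replicate 2 (0.23, adjusted p = 0.0785), with effective-length offsets (0.24, adjusted p = 0.0506) and with the DESeq2 Wald test (0.25, adjusted p = 0.13). Of its span, 778 bases overlap Sirt2 on the opposite strand, a gene with 634 to 834 counts per library, and the strand setting of the counting is not given in the sources used here.

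Nfkbie (ENSMUSG00000023947.7, chromosome 17, 45555703 to 45563169 in GENCODE M21, which holds the next version of this identifier) had the lowest level of the 7. Its counts were 69 and 74 in DSS-treated KO, 28 and 50 in DSS-treated WT, 31 and 35 in KO without DSS, and 29 and 23 in WT without DSS. That was 3.97 and 4.23 CPM in DSS-treated KO, 1.68 and 2.94 CPM in DSS-treated WT, 1.97 and 2.14 CPM in untreated KO and 1.45 and 1.29 CPM in untreated WT. DSS-treated KO lay above all other libraries, while the libraries of DSS-treated WT spread around those of untreated KO. KO against WT gave a log2 fold change of 0.82 ± 0.24 with DSS (SE, edgeR adjusted p = 0.0127) and 0.58 ± 0.29 without it (adjusted p = 0.208). The value with DSS rests on how DSS-treated WT is read: it was 0.48 (adjusted p = 0.156) without DSS-treated WT replicate 1 and 1.28 (adjusted p = 0.0031) without DSS-treated WT replicate 2, and the DESeq2 Wald test did not call it (0.82, adjusted p = 0.0941). DSS against no treatment gave 0.99 ± 0.24 in KO (edgeR adjusted p = 0.00434).

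**Figure D2:**
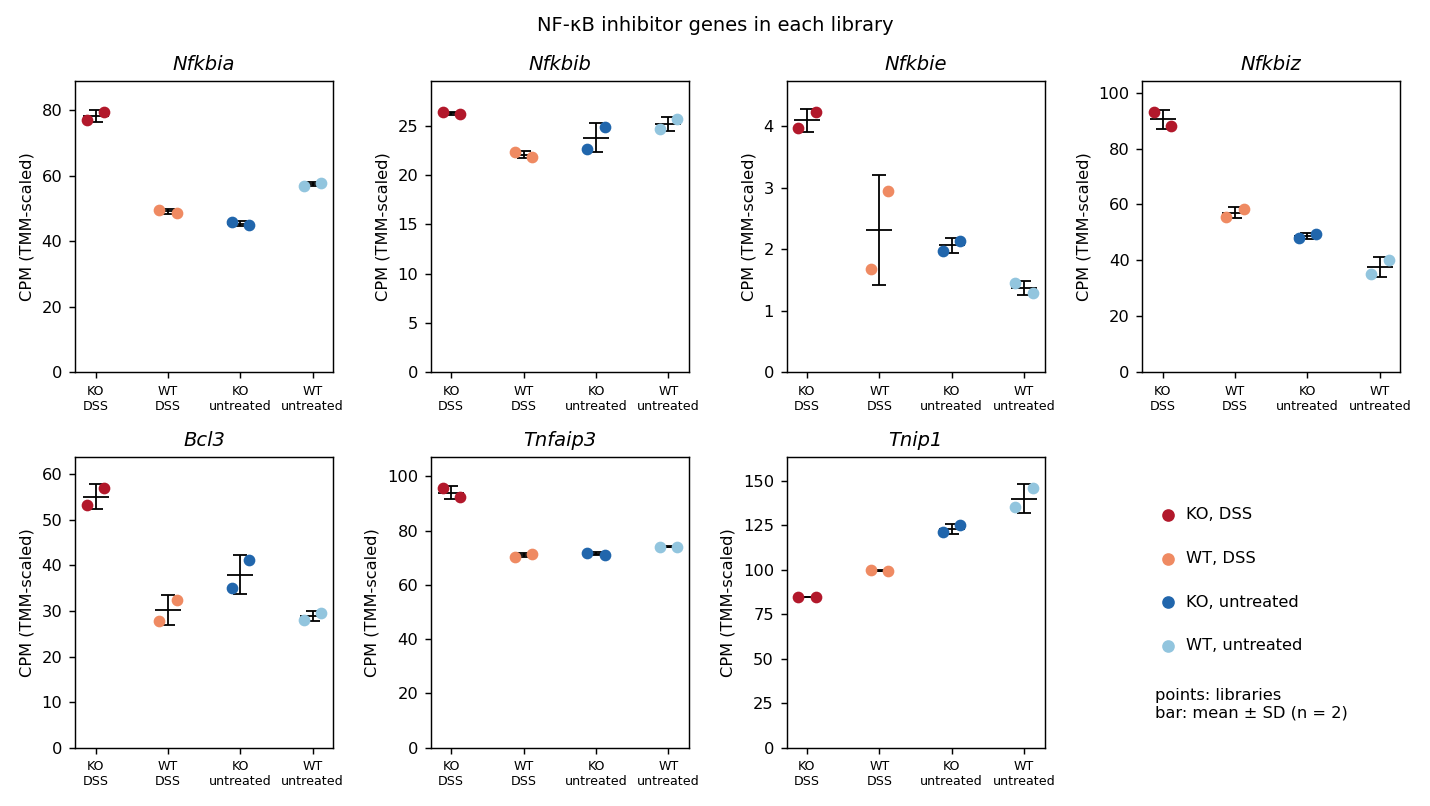
Each panel plots 1 gene, with TMM-scaled CPM on the vertical axis from 0 and the 4 groups on the horizontal axis; points are libraries and bars are the mean ± SD (n = 2). DSS-treated KO is the highest group in 6 panels and the lowest in the Tnip1 panel (84.6 and 84.5 CPM).

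Both genes of nuclear IκB proteins were higher in KO than in WT at each treatment. Nfkbiz (ENSMUSG00000035356.16, chromosome 16, 55811375 to 55838899 in GENCODE M21, there with the next identifier version) encodes a cofactor for antimicrobial and inflammatory genes in mouse epithelia. It stood at 93.0 and 88.1 CPM in DSS-treated KO, 55.6 and 58.5 CPM in DSS-treated WT, 47.8 and 49.5 CPM in untreated KO and 35.2 and 40.2 CPM in untreated WT. No libraries of different groups overlapped, so that KO lay above WT at both treatments and DSS above no treatment in both genotypes. KO against WT gave a log2 fold change of 0.37 ± 0.07 without DSS (SE, edgeR adjusted p = 0.00199) and 0.67 ± 0.06 with DSS (adjusted p = 9.34e-07). DSS gave 0.89 ± 0.06 in KO (edgeR adjusted p = 3.51e-08) and 0.60 ± 0.07 in WT (adjusted p = 9.08e-06).

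Bcl3 (ENSMUSG00000053175.17, chromosome 7, 19808462 to 19822770), first known as an oncogene of lymphoid leukaemia, was called higher in KO at both treatments and higher with DSS in KO. It stood at 53.2 and 57.0 CPM in DSS-treated KO, 27.9 and 32.5 CPM in DSS-treated WT, 35.0 and 41.1 CPM in untreated KO and 28 and 29.5 CPM in untreated WT. The libraries of both WT groups overlapped, and each KO group lay above them. KO against WT gave a log2 fold change of 0.87 ± 0.08 with DSS (SE, edgeR adjusted p = 1.38e-06) and 0.41 ± 0.09 without it (adjusted p = 0.00542). The untreated call was lost without untreated KO replicate 2 (0.28, adjusted p = 0.123) and without untreated WT replicate 1 (0.36, adjusted p = 0.0746). DSS gave 0.53 ± 0.08 in KO (edgeR adjusted p = 8.55e-05) and 0.07 ± 0.09 in WT (adjusted p = 0.551). A gene model on the opposite strand, Gm16174, overlaps Bcl3 and had 5 to 14 counts per library.

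The A20 partners moved apart from each other. Tnfaip3 (ENSMUSG00000019850.11, chromosome 10, 19000910 to 19015657) stood at 95.7 and 92.4 CPM in DSS-treated KO, 70.3 and 71.4 CPM in DSS-treated WT, 71.8 and 71.1 CPM in untreated KO and 74.1 and 74.1 CPM in untreated WT. The other 3 groups lay within 70.3 to 74.1 CPM, and only DSS-treated KO stood above that band. KO against WT gave a log2 fold change of 0.41 ± 0.05 with DSS (SE, edgeR adjusted p = 8.50e-06) and -0.05 ± 0.05 without it (adjusted p = 0.518). DSS gave 0.40 ± 0.05 in KO (edgeR adjusted p = 8.84e-06) and -0.06 ± 0.05 in WT (adjusted p = 0.307).

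Tnip1 (ENSMUSG00000020400.17, chromosome 11, 54910785 to 54962917) fell with DSS in both genotypes. It stood at 84.6 and 84.5 CPM in DSS-treated KO, 99.6 and 99.4 CPM in DSS-treated WT, 121 and 125 CPM in untreated KO and 135 and 146 CPM in untreated WT. No libraries of different groups overlapped, and KO lay below WT and DSS below no treatment throughout. DSS gave a log2 fold change of -0.54 ± 0.05 in KO (SE, edgeR adjusted p = 7.61e-07) and -0.50 ± 0.05 in WT (adjusted p = 2.86e-06). The difference between these falls was -0.05 ± 0.07 on the log2 scale (edgeR adjusted p = 0.677). KO against WT gave -0.24 ± 0.05 with DSS (edgeR adjusted p = 0.00215) and -0.19 ± 0.05 without it (adjusted p = 0.0169). The untreated call was lost without untreated KO replicate 1 (-0.17, adjusted p = 0.173), without untreated KO replicate 2 (-0.21, adjusted p = 0.0778), without untreated WT replicate 2 (-0.13, adjusted p = 0.188), with effective-length offsets (-0.16, adjusted p = 0.12) and with the DESeq2 Wald test (-0.19, adjusted p = 0.0543).

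**Figure D3:**
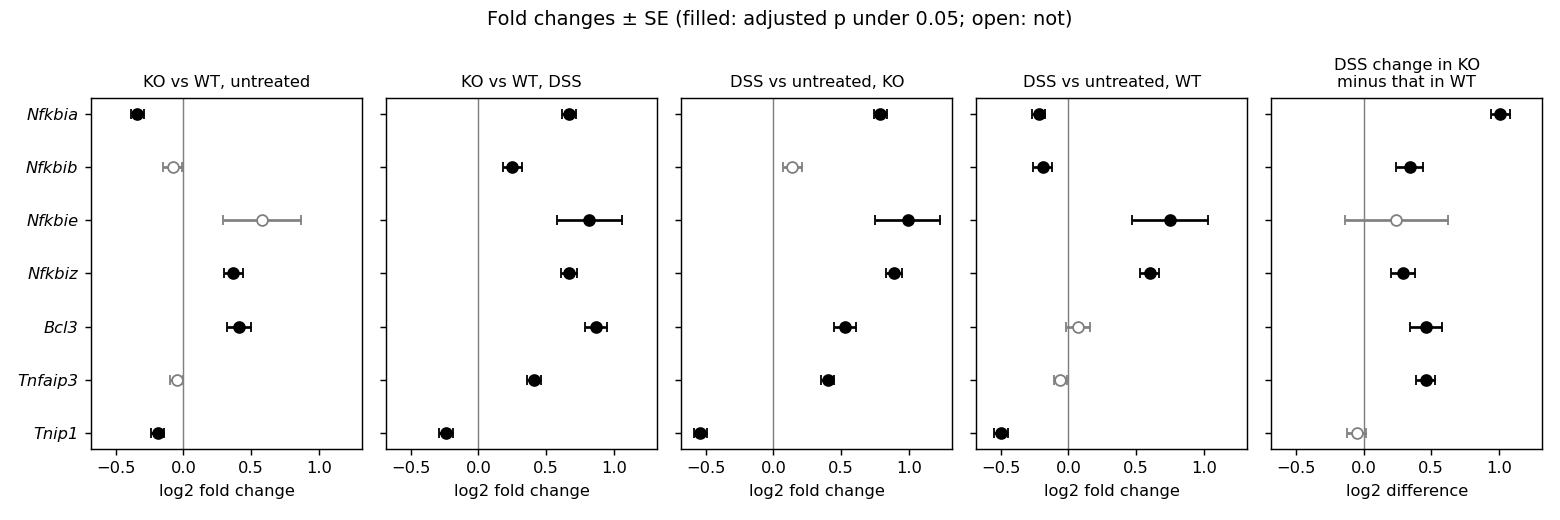
The log2 fold change (horizontal axis) of each of the 7 genes is drawn with its SE for 4 comparisons and, at the right, the log2 difference between the DSS change in KO and that in WT; filled points have an edgeR adjusted p under 0.05. Nfkbia lies left of 0 in untreated KO against WT (-0.34) and right of 0 in DSS-treated KO against WT (0.67).

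Before injury, KO and WT differed in a mixed way. Nfkbiz and Bcl3 rose and Nfkbia and Tnip1 fell, which is 4 of 7 past the edgeR threshold of an adjusted p under 0.05, against 15.4% of all 14991 genes tested (9.19% higher and 6.22% lower). The libraries of KO and WT did not overlap for 6 of the 7, against 59.4% of all genes. The median log2 fold change of the 7 was -0.05, beside 0.01 for all genes tested, so the group as a whole had no common direction. The 4 became 2 without untreated KO replicate 2, where Nfkbia and Nfkbiz were called. Genes that respond fast to handling and tissue dissociation moved with Nfkbia: 9 of 15 immediate-early and dissociation genes fell and 1 rose (median log2 fold change -0.27). Without either untreated KO library or untreated WT replicate 2, 7 fell and 0 rose by edgeR. Junb led with 132 ± 0.385 CPM in untreated KO and 178 ± 4.99 CPM in untreated WT (SD, n = 2), and Dusp1 followed with 61.1 CPM in untreated KO and 82.6 CPM in untreated WT. The summed level of that list was 1855 and 1858 CPM in untreated KO, against 2099 and 2077 CPM in untreated WT. Its part in the Nfkbia value was not tested. Neutrophil markers summed to 1.78 and 2.20 CPM in untreated KO and 2.20 and 2.13 CPM in untreated WT, with 7 of 12 at 0 counts in untreated KO and 6 of 12 in untreated WT, S100a8, Retnlg and Cxcr2 among them in both. Epithelial markers summed to 22940 and 23103 CPM in untreated KO and 20595 and 20609 CPM in untreated WT (5 of 10 higher). Fibroblast markers summed to 10.4 and 11.2 CPM in untreated KO and 7.31 and 6.61 CPM in untreated WT (2 of 4 measured higher). The 1 endothelial gene measured, Pecam1, fell (log2 fold change -0.77), and 1 of 11 macrophage genes, Mrc1, rose (1.42). No neutrophil, T, NK, B or plasma cell marker was called. The part of these lists in the 7 genes was not tested.

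After injury, the genotypes differed in every one of these genes. All 7 genes passed the threshold by edgeR, 6 higher and Tnip1 lower, against 39.1% of all genes tested in either direction (21.3% higher and 17.7% lower). The libraries of KO and WT did not overlap for any of the 7, against 68.1% of all genes. Their median log2 fold change was 0.67, beside -0.01 for all genes. The DESeq2 Wald test called 5 of them, without Nfkbib and Nfkbie. Markers of neutrophils, macrophages and fibroblasts differed between the same libraries. The summed CPM of 12 neutrophil markers was 224 and 238 in DSS-treated KO and 16.3 and 16.8 in DSS-treated WT, 11 of the 11 measured were higher, and Ngp and Camp were at 0 counts in DSS-treated WT. The summed CPM of 12 macrophage markers was 155 and 164 in DSS-treated KO and 73.8 and 73.7 in DSS-treated WT, with 7 of 11 measured higher (4 without DSS-treated WT replicate 2) and Cd163 at 0 counts in DSS-treated KO. Cd14 made up most of the macrophage sum, at 106 and 112 CPM in DSS-treated KO and 47.2 and 47.8 CPM in DSS-treated WT. Without DSS, Cd14 stood at 39.7 and 42.3 CPM in KO and 39.4 and 40.7 CPM in WT. Fibroblast markers summed to 11.1 and 10.9 CPM in DSS-treated KO and 4.99 and 5.18 CPM in DSS-treated WT, with 4 of 4 measured higher. Mitochondrial genes took 5.29% and 4.91% of counts in DSS-treated KO and 7.45% and 7.50% in DSS-treated WT. The part of these in the rise of the 6 genes was not tested. The epithelial list summed to 20469 and 21459 CPM in DSS-treated KO and 19565 and 19645 CPM in DSS-treated WT.

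Within KO, DSS against no treatment called 6 of 7 genes by edgeR, with Nfkbia, Nfkbie, Nfkbiz, Bcl3 and Tnfaip3 higher and Tnip1 lower, against 41.6% of all genes (21.7% higher and 19.8% lower). The libraries did not overlap for any of the 7, against 68.4% of all genes. Nfkbib gave 0.14 ± 0.07 (SE, log2, edgeR adjusted p = 0.125). Within WT, 5 of 7 were called against 37.2% of all genes (18.9% higher and 18.3% lower), with Nfkbiz and Nfkbie higher and Nfkbia, Nfkbib and Tnip1 lower. Libraries of DSS-treated and untreated WT overlapped for Bcl3 and not for the other 6, against 70.2% of all genes without overlap. The calls of Nfkbib (-0.19 ± 0.07, edgeR adjusted p = 0.0482) and Nfkbie (0.75 ± 0.28, adjusted p = 0.0484) sat at the threshold. The count was 3 (Nfkbia, Nfkbiz and Tnip1) without DSS-treated WT replicate 2, without either untreated KO library, without either untreated WT library, with the DESeq2 Wald test and with effective-length offsets. Without DSS-treated WT replicate 2 the Nfkbie value was 0.29. These comparisons share libraries with those of genotype. DSS itself moved the marker lists: neutrophil markers summed to 224 and 238 CPM in DSS-treated KO against 1.78 and 2.20 CPM in untreated KO, and to 16.3 and 16.8 CPM in DSS-treated WT against 2.20 and 2.13 CPM in untreated WT. The summed level of the immediate-early genes ran the other way. It was 1148 and 1193 CPM in DSS-treated KO against 1855 and 1858 CPM in untreated KO. In WT it was 1168 and 1223 CPM with DSS against 2099 and 2077 CPM without it. Not all of that list fell: by edgeR 9 of 15 were lower and 1, Ier3 (1.41 ± 0.12, SE, log2), was higher in KO. In WT 10 of 15 were lower and 0 higher. The part of these lists in the values of the 7 genes was not tested.

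The test of whether the DSS change itself differed between genotypes called 5 of 7 genes, all with a more positive change in KO than in WT, against 10.8% of all genes called in that direction and 21.4% in either. After Nfkbia (1.01) came Tnfaip3 (0.46 ± 0.07, SE, edgeR adjusted p = 0.000255), Bcl3 (0.46 ± 0.12, adjusted p = 0.0142), Nfkbib (0.34 ± 0.10, adjusted p = 0.0296) and Nfkbiz (0.29 ± 0.09, adjusted p = 0.0343), all as log2 differences. Nfkbie gave 0.24 ± 0.38 (edgeR adjusted p = 0.703). The calls of Nfkbia and Tnfaip3 held in every fit that was run. The count fell to 2 without DSS-treated WT replicate 1, untreated KO replicate 1 or untreated WT replicate 2, and to 3 without DSS-treated WT replicate 2, with effective-length offsets or with the DESeq2 Wald test. Among immediate-early genes 6 of 15 were called with a more positive DSS change in KO than in WT and 2 with a more negative one, with Junb at 0.93 ± 0.07, Dusp1 at 1.06 ± 0.09 and Ier3 at 1.70 ± 0.18 on the same log2 scale. Dusp1 fell with DSS in both genotypes, by 1.26 in KO and by 2.32 in WT. The part that list had in the values of the 7 genes was not tested.

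**Figure D4:**
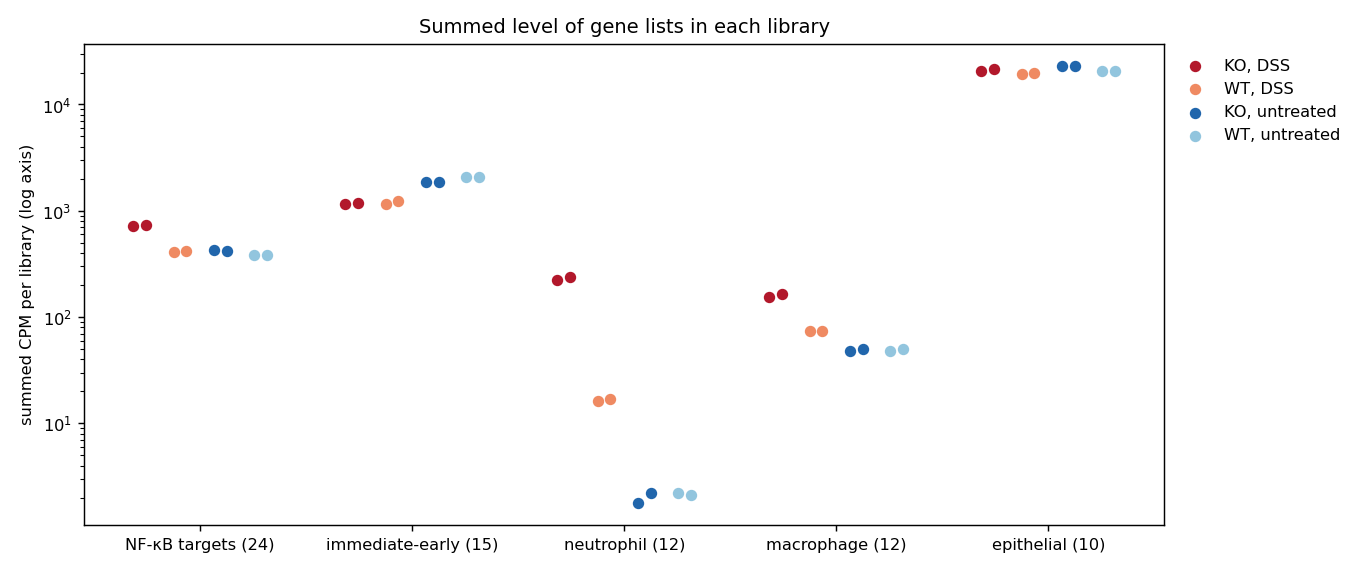
Summed CPM per library (log vertical axis) is drawn for 5 gene lists (number of genes in parentheses), with 2 points per group. The neutrophil points of DSS-treated KO (224 and 238) lie above those of DSS-treated WT (16.3 and 16.8) and of both untreated groups.

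Transcripts of the NF-κB subunits and of the machinery that activates them were set beside those of the inhibitors. Rela, the gene of a main activating subunit, had 24 and 25.9 TPM in DSS-treated KO, 20.6 and 22 TPM in DSS-treated WT, 22.4 and 22.7 TPM in untreated KO and 21.4 and 20.9 TPM in untreated WT. The ratio of Nfkbia to Rela by TPM was 3.93 and 3.65 in DSS-treated KO, 2.82 and 2.37 in DSS-treated WT, 2.32 and 2.31 in KO without DSS, and 2.86 and 2.97 in WT without DSS. DSS-treated KO had the highest ratios and untreated KO the lowest. Across 21 genes of subunits and activating machinery, 3 rose and 4 fell in DSS-treated KO against WT, where 39.1% of all genes were called (median log2 fold change 0.01, beside -0.01 for all genes), with Rel, a subunit abundant in immune cells, at 0.69 ± 0.09 (SE, edgeR adjusted p = 2.27e-05; 26.1 ± 2.21 CPM in DSS-treated KO and 16.1 ± 0.693 CPM in DSS-treated WT, SD, n = 2), Btrc, which marks phosphorylated IκB for destruction, at -0.30 ± 0.09 and Nfkb2 at 0.18 ± 0.05. Those counts were 1 and 0 without either DSS-treated WT library, and the 4 lower genes were 2 without DSS-treated KO replicate 2. In untreated KO against WT, where 15.4% of all genes were called, 0 rose and 2 fell by edgeR (Birc3 at -0.31 ± 0.06 and Fbxw11 at -0.21 ± 0.05), and 1 fell without any 1 untreated library and 4 fell and 1 rose without either DSS-treated KO library.

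Of 16 other genes that restrain the pathway, 7 rose and 1 fell in DSS-treated KO against WT, where 21.3% of all genes were higher and 17.7% lower (median log2 fold change 0.08, beside -0.01 for all genes), led by Zc3h12a, an RNase that cleaves inflammatory messenger RNAs (68.8 ± 0.220 CPM in DSS-treated KO and 39.3 ± 0.608 CPM in DSS-treated WT, 0.81 ± 0.06, SE, edgeR adjusted p = 7.09e-08), Tnip3, a relative of Tnip1 (57.7 ± 0.471 CPM in DSS-treated KO and 35.5 ± 1.39 CPM in DSS-treated WT, 0.70 ± 0.06, adjusted p = 2.19e-07) and the A20 adaptor Tax1bp1 (0.21 ± 0.04). The 7 were 4 without DSS-treated WT replicate 1. The 1 that fell, Rnf11, was chosen after its values were seen, and that count was 0 without any 1 library other than DSS-treated KO replicate 2. In untreated KO against WT, where 15.4% of all genes were called, 2 rose (Pdlim2 at 0.44 ± 0.05 and Zc3h12a at 0.22 ± 0.07) and Tax1bp1 fell (-0.24 ± 0.04), and only 1 rose without either untreated KO library, untreated WT replicate 1 or either DSS-treated WT library. Tnip3 and Tnip1 therefore differed in direction in DSS-treated KO. Of the inflammatory targets, 15 of 20 measured rose and 2 fell in DSS-treated KO against WT, where 39.1% of all genes were called (median log2 fold change 2.25), led by Nos2 at 93.4 ± 0.800 CPM in DSS-treated KO and 15.1 ± 0.681 CPM in DSS-treated WT, Il1b at 70.9 ± 2.61 CPM in DSS-treated KO and 9.07 ± 0.341 CPM in DSS-treated WT, and the chemokine gene Cxcl2 at 34.7 ± 1.45 CPM in DSS-treated KO and 3.00 ± 0.251 CPM in DSS-treated WT. The 2 that fell, Traf1 and Cflar, were named after their values were seen, and that count was 0 without DSS-treated WT replicate 2 and 1 without any other DSS-treated library. In the same libraries, neutrophil markers summed to 224 and 238 CPM in DSS-treated KO and 16.3 and 16.8 CPM in DSS-treated WT. Macrophage markers summed to 155 and 164 CPM in DSS-treated KO and 73.8 and 73.7 CPM in DSS-treated WT. The part of these markers' cells in the values of the targets was not tested. Against the same 15.4% of all genes called in untreated KO against WT, 2 of the 20 targets rose (Irf1 at 0.27 ± 0.04 and Traf1 at 0.66 ± 0.11) and Ccl20 fell (-1.17 ± 0.25), which had 1.25 ± 0.209 CPM in untreated KO and 2.81 ± 0.411 CPM in untreated WT. The Ccl20 call was lost without untreated KO replicate 2 or untreated WT replicate 1.

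The genes whose log2 CPM followed each member most closely over the 8 libraries were found among 9999 genes (10000 for Nfkbie) whose mean level reached 5 CPM. For Nfkbia they were Muc1 (Pearson r = 0.989), Atp6v1b2 (0.985) and the complement gene Cfb (0.984). For Tnfaip3 they were Cldn2 (0.991), Egln3 (0.989) and Gda (0.986), and for Bcl3 they were Dbnl (0.992), Mcm10 (0.986) and Aifm1 (0.985). Nfkbiz was followed by Vim (0.994), Sept11 (0.994) and Cenpf (0.994), Nfkbie by Vamp3 (0.993), Irf8 (0.987) and Mtpn (0.987), Tnip1 by Tgm3 (0.993), Ehhadh (0.992) and Hid1 (0.991), and Nfkbib by Samm50 (0.961), Exosc1 (0.937) and Cd81 (0.928). The 8 points of each r are 4 groups of 2 libraries that share treatment and genotype, so a high r describes a shared order of groups and no more.

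**Figure D5:**
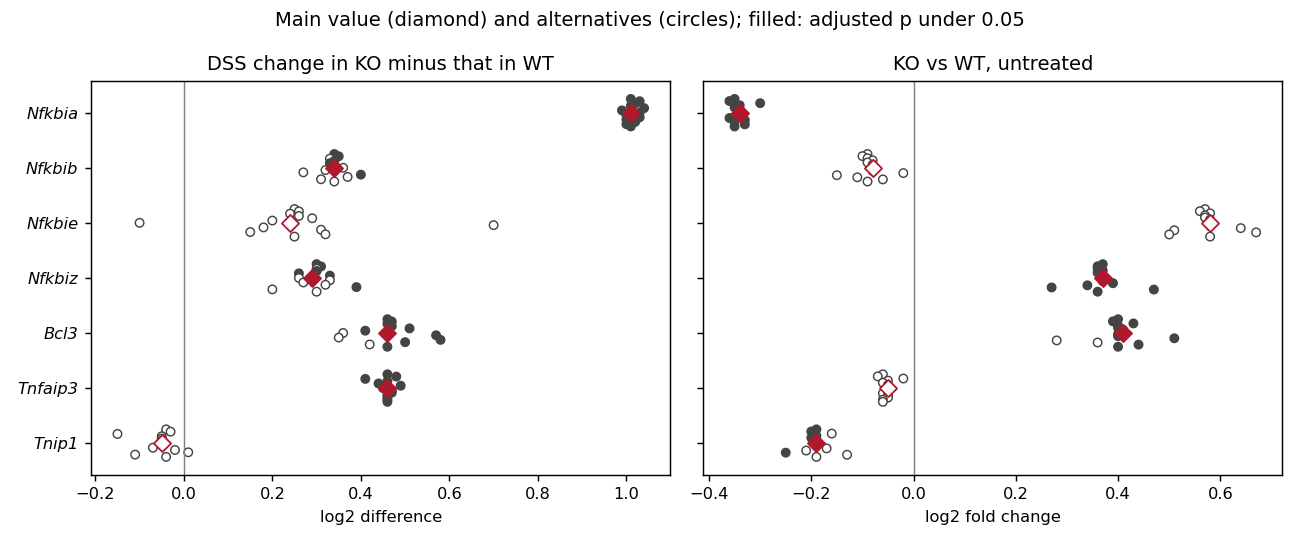
For each gene the main value (diamond) and the alternative fits (circles) are drawn for the difference between the DSS change in KO and that in WT (left, log2) and for KO against WT without DSS (right, log2); filled symbols have an adjusted p under 0.05. Nfkbia stays at 0.99 to 1.04 on the left and at -0.36 to -0.30 on the right, while Nfkbib and Nfkbiz on the left and Tnip1 on the right are open in several fits.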

How the data were processed

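RNA sequencing of 8 libraries of mouse distal colon epithelial cells was used, with 2 libraries for each genotype and treatment. The deposited tables hold an expected count per gene (RSEM estimates), a TPM value corrected for effective length, and the effective length, per the file headers. Upstream tools, per the submitters' processing notes, were RSEM 1.3.0, STAR 2.5.3a and DESeq2 1.18.1 with the build mm10, listed without roles or options, and the annotation release and strand setting are not given in the sources used here. RSEM shares reads of similar sequences among genes, but the 7 genes had whole counts in every library (largest distance from a whole number 0.0).

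Expected counts as deposited by the authors were rounded and tested in R 4.3.3 with edgeR 4.0.16 (glmQLFit, glmQLFTest). The default filterByExpr rule left 14991 genes, TMM factors scaled the libraries, and the model, fitted to all 8 libraries, had a mean for each group (4 residual degrees of freedom). P-values were two-sided and adjusted by Benjamini-Hochberg over all genes tested in each comparison, with a threshold of 0.05. The SE is the absolute log2 fold change over the square root of the F statistic, and it can be too small for low counts. TPM values as deposited were used only to compare levels between genes and were not tested. Alternatives were RLE scaling, no filter, effective-length offsets, only the groups compared, a replicate term, each library left out in turn, and DESeq2 1.42.0. Leaving out a library leaves 1 in its group, which is then assumed to vary like the others.

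The fit was tested on simulated counts for the same 14991 genes, of which only a small part was changed. Far more genes were called in the real comparisons, so the shares recovered need not hold there. Of 100 genes changed 1.5-fold it recovered 67.0% for KO against WT under either treatment, 73.0% for DSS in KO, 68.0% for DSS in WT and 59.0% for the difference between them. Equal replicate numbers did not pair the libraries: over 6 pairs of groups the correlation of replicate differences ran from -0.11 to 0.08.

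The 7 genes and all gene lists were chosen with earlier results of these data known. The text names the 7 genes in every comparison, up to 3 called genes with the smallest p of each pathway list, and the 3 genes with the highest r to each member, leaving out unnamed gene models, pseudogenes and ribosomal protein genes. Named exceptions are stated where they occur. Motifs were searched in RefSeq windows of 300 bases on GRCm38.p6. Gene positions are from GENCODE M21, where 99.8% of the identifiers were found once versions were dropped.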

Additional observations from a re-analysis of the deposited data

Results flagged for a closer look

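The DSS response differed between genotypes for 5 of the 7 genes by the test of the difference itself (edgeR). Each had a more positive change in KO than in WT, against 10.8% of all genes called in that direction and 21.4% in either. The calls of Nfkbia and Tnfaip3 held in every fit that was run, while those of Bcl3, Nfkbib and Nfkbiz were each lost in some. As log2 differences, the values were 1.01 for Nfkbia, 0.46 for Tnfaip3, 0.46 for Bcl3, 0.34 for Nfkbib and 0.29 for Nfkbiz. Nfkbia also changed direction, with a DSS change of 0.79 in KO and -0.22 in WT, both past the threshold. Groups of 2 libraries are too small for a check of single outlying samples.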

How the results depend on the processing

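Each of the 35 combinations of gene and comparison was refitted, which gave 483 alternative values, and none that was called changed sign. Of 27 calls, 18 held in every fit. Of the 483 values, 436 stayed on their side of the threshold and 47 lost a call. With effective-length offsets 3 of the 7 genes were called for DSS in WT and 3 for the difference of DSS changes, where 5 were called in each. With the DESeq2 Wald test the same counts were 3 and 3. With the replicate block 3 were called for DSS in WT, with Nfkbib (-0.19, adjusted p = 0.0551) and Nfkbie (0.74, adjusted p = 0.0519) lost, and no other call changed. With 1 library left out, the number called ran from 2 to 4 for untreated KO against WT, from 6 to 7 for DSS-treated KO against WT, from 6 to 6 for DSS in KO, from 3 to 5 for DSS in WT and from 2 to 5 for the difference. RLE scaling changed no call, and no scaling moved the median log2 fold change of all genes by over 0.1.

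Counts over all genes moved more. Untreated KO against WT had 2310 calls, and from 953 to 3174 with 1 library left out, 1290 with effective-length offsets and 1182 with the DESeq2 Wald test. The other counts were 5855 for DSS-treated KO against WT (3801 with DESeq2), 6231 for DSS in KO, 5573 for DSS in WT (3379 with DESeq2, 3659 without DSS-treated WT replicate 1) and 3208 for the difference (1623 with DESeq2, 1794 with effective-length offsets and from 1891 to 4444 with 1 library left out). Depth limits Nfkbie most, at 23 to 74 counts per library.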

Other observations

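Genes that share the dissociation response split in DSS-treated KO against DSS-treated WT: Jun fell (65.3 ± 4.26 CPM in DSS-treated KO and 105 ± 0.122 CPM in DSS-treated WT, SD, n = 2, log2 fold change -0.69 ± 0.05, SE, edgeR adjusted p = 1.22e-07), while Ier3 rose (17.6 ± 1.35 CPM in DSS-treated KO and 6.78 ± 0.266 CPM in DSS-treated WT, 1.38 ± 0.12, adjusted p = 6.22e-07) and Junb rose (133 ± 3.51 CPM in DSS-treated KO and 94.7 ± 6.84 CPM in DSS-treated WT, 0.49 ± 0.05, adjusted p = 4.63e-06). Over the 15 genes of that list, 4 rose and 4 fell, where 21.3% of all genes tested were higher and 17.7% lower.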
